A study of Saccharomyces cerevisiae with 8 samples.

Results

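The 39 genes described here encode enzymes of amino acid synthesis in budding yeast together with GCN4, the transcription factor that governs them. They were taken by systematic name from a list of amino acid synthesis genes under Gcn4. All 39 were found among the 7658 features used, of which 5403 were open reading frame features. The list holds 5 histidine, 7 arginine, 7 lysine, 8 branched-chain, 6 aromatic and 4 homoserine and threonine genes, plus ASN1 and GCN4. All 39 passed the filter on low counts, and 37 had a feature of their own. HIS3 was counted in a feature that also carries YOR203W, and CPA1 in one that also carries YOR302W. The counts of those 2 features cover both names together.

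RNA was counted in 8 Saccharomyces cerevisiae libraries, 2 biological replicates in each of 4 groups, from cells grown in YPAD medium. The tagged strain Y3284 carries NAB2-FRB::HIS, and its groups are 0, 15 and 30 min of rapamycin at 1 µg/ml. The control strain Y2615 has no FRB tag on Nab2 and was taken after 30 min at the same dose. Both strains carry tor1-1, an fpr1 disruption marked with LEU2, and RPL13A-2xFKBP12 marked with TRP1. The mating type is given as MATa for the control strain and as MAT, with no letter, for the tagged one. Each strain is a single line, so strain and tag cannot be told apart in a comparison with the control. In a comparison with 0 min, exposure to rapamycin and removal of Nab2 cannot be told apart.

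Nab2 is a nuclear poly(A)-binding protein, and in the anchor-away system rapamycin joins its FRB tag to FKBP12 on a ribosomal protein that leaves the nucleus, which removes Nab2 from the nucleus. Gcn4 is a bZIP activator that binds sites with the core TGACTC upstream of amino acid genes. It is controlled mainly at translation, through short reading frames in the leader of its mRNA and the state of the initiation factor eIF2, and its protein is short-lived. Under amino acid starvation Gcn4 raises the mRNA of genes in most amino acid pathways at once, a response known as general amino acid control.

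Library totals ranged from 4832947 to 17023011 counts. In 3 libraries, 15 min replicate 1, 30 min replicate 2 and control replicate 1, over 20% of features had 0 counts. Levels are given as CPM, the counts scaled to the TMM-adjusted library total, so they say how a transcript stands against the rest of its library and nothing about the amount of RNA in a cell. Differences were tested with edgeR's quasi-likelihood test on all 6191 tested features, and a gene was called at a Benjamini-Hochberg adjusted p under 0.05. With 2 libraries a group, an exact permutation test of a single gene cannot go below p = 0.333.

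The core TGACTC, searched as TGACTC and as its reverse complement GAGTCA in the 500 bases before the coding start (genome R64, RefSeq), was present at 31 of the 39 genes, or 79.5%, against 759 of 6000 protein-coding genes, or 12.6%. At 13 members, or 33.3%, it was present 2 or more times, against 1.4% of all genes. The list was drawn up as genes under Gcn4, so these shares describe the list and test nothing. The share among other amino acid synthesis genes was not computed. No match lay in the window of GCN4 itself, nor of ARO3, ILV2, LYS4, LYS9, LYS20, LYS21 or TRP5. The window runs back from the coding start and so takes in the mRNA leader, which is long at GCN4. How much of the GCN4 promoter it holds was not determined. The stretches before the 5 members called in at least 1 comparison, and before HIS4, a classical Gcn4 target, are shown so that the matches can be compared. Each is 30 bases of the gene's own strand, with the match in capitals, and the number after the name is its distance in bases before the coding start.
ILV5, 140, chrXII:839376-839405, minus strand: gatgacctaactTGACTCaatggcttttac
ILV5, 311, chrXII:839547-839576, minus strand: ggtggctgtcagTGACTCatccgcgtttcg
ILV5, 339, chrXII:839575-839604, minus strand: agagctcagtagGAGTCAgaacctctgcgg
ILV1, 133, chrV:328332-328361, plus strand: atcaaagaaaaaGAGTCAtctcaaacatat
THR1, 101, chrVIII:159325-159354, plus strand: aaatttgtgcaaGAGTCAtcatctcgaaaa
LYS1, 134, chrIX:420853-420882, minus strand: ttcagcgacaaaGAGTCAtaaagtcatcct
LYS1, 249, chrIX:420968-420997, minus strand: tactaagtcgatGAGTCAaaaaagactctt
HIS3, 122, chrXV:721812-721841, plus strand: ccacctagcggaTGACTCtttttttttctt
HIS3, 286, chrXV:721648-721677, plus strand: ggtgagcgctagGAGTCActgccaggtatc
HIS4, 199, chrIII:68515-68544, minus strand: acccatgcacagTGACTCacgtttttttat
HIS4, 243, chrIII:68559-68588, minus strand: tgactctaatagTGACTCcggtaaattagt
HIS4, 255, chrIII:68571-68600, minus strand: aggcagtcgaacTGACTCtaatagtgactc
LYS1, which rose, and ILV5, which fell, both had more than 1 match. The last 2 stretches of HIS4 overlap each other.

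**Figure D1:**
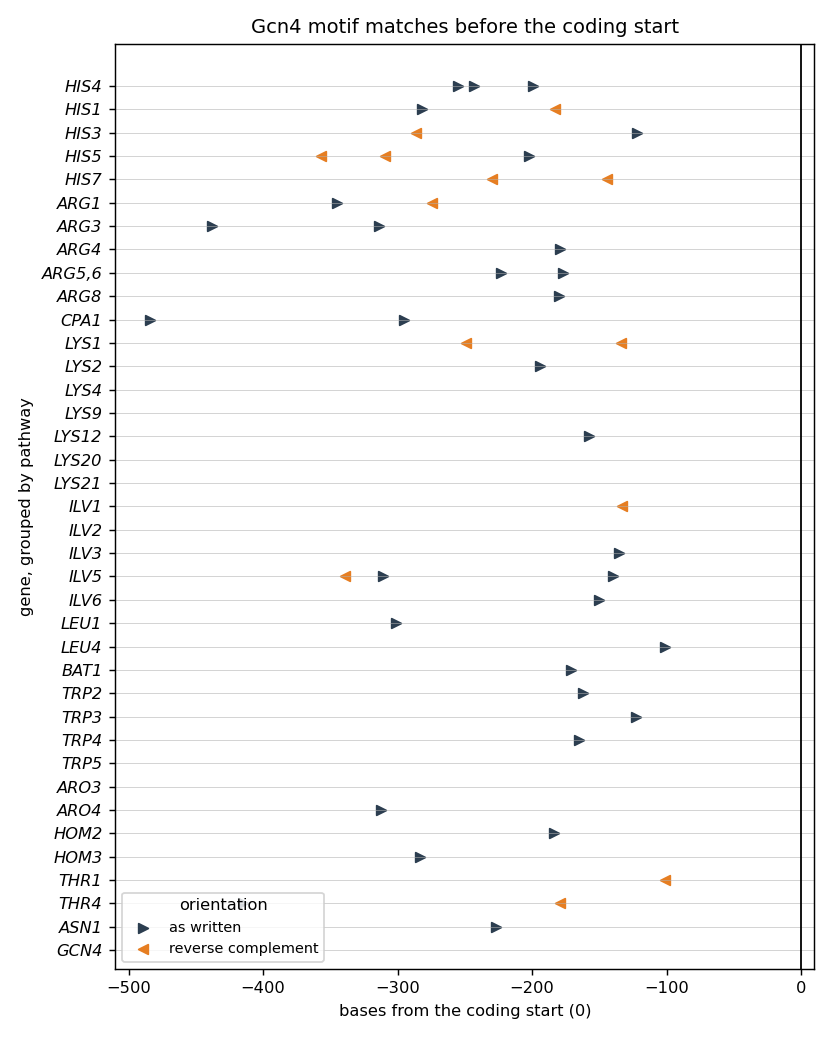
Position of each TGACTC match (as written or as its reverse complement) in the 500 bases before the coding start of each member, by pathway, where 0 on the horizontal axis is the coding start. Drawn are 38 of the 39 members, and 4 of the 8 genes without a match are lysine genes.

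Few of the amino acid genes passed the test in any comparison. At 15 min over 0 min, edgeR called 0 of the 39, against 0.162% of all features called in either direction. At an unadjusted p under 0.05, 1 was higher and 1 lower there, against 2.67% and 4.17% of all features, and DESeq2 called 1 member and 1.69% of all features. At 30 min over 0 min, 1 rose and 2 fell, against 0.501% of all features called higher and 2.26% called lower. At 30 min over the control, 2 were higher and 3 lower, against 1.31% and 4.76% of all features.

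Between 30 and 15 min edgeR called 0 members, against 0.452% of all features. At an unadjusted p under 0.05, 1 was higher and 11 lower, against 3.12% and 7.51% of all features, and DESeq2 called 2 members and 8.56% of all features. The control over 0 min also gave 0 calls among the members with edgeR, against 0.0808% of all features, while 0 were higher and 1 lower unadjusted, against 0.372% and 1.41%. DESeq2 called 1 member there and 0.226% of all features. In the 4 libraries after 15 and 30 min over the other 4, 1 was higher and 2 lower, against 1.89% and 5.06% of all features.

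Below the test's threshold, most members were lower at 30 min than at 0 min. Their median log2 fold change was -0.40, against -0.05 over all features tested and -0.12 over open reading frame features. Of the 39, 30 had a value below 0, against 52.4% of all features. In 21 members both 30 min libraries lay below both 0 min libraries, where 27.7% of all features did so, and in 6 members both lay above, where 20% did. Against the control the median was -0.40, with 0.06 over all features, and 29 of 39 were below 0, against 47.8%. In that comparison 18 members were lower without overlap, against 24.2% of all features, and 7 higher, against 22.9%. At 15 min over 0 min the median was 0.11 (-0.06 over all features), with 26 members above 0 and 13 below, against 53.7% of all features below.

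Which library was in a group changed the size of that median. Without 0 min replicate 1 it was -0.13 at 30 over 0 min (0.01 over all features), and without 30 min replicate 1 it was -0.31, with -0.28 over all features. Without control replicate 2 the median against the control was -0.04, with 0.27 over all features. Members were higher in 0 min replicate 1 than in replicate 2 at 31 of 39 genes, and higher in control replicate 2 than in replicate 1 at 29 of 39. The typical member differed 1.26-fold between the 0 min libraries, 1.11-fold between the 15 min libraries, 1.24-fold between the 30 min libraries and 1.34-fold between the control libraries. Without the 3 libraries with many features at 0, the medians were -0.42 at 30 over 0 min and -0.57 at 30 min over control. The medians over all features in that fit were -0.02 and 0.09. ILV5 stood at -1.55 there over the libraries after rapamycin against the rest. Some groups keep only 1 library in that fit, so only sizes are given for it in this paragraph. Where a call is said below to be lost in that fit, the loss can come from having fewer libraries. Such a loss does not show a smaller change.

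The library scaling changed the values but less so the distance between members and other features. At 30 over 0 min the members' median was -0.29 with RLE factors, -0.20 with total library size, -1.08 scaled to small nucleolar RNA (snoRNA) counts and -0.74 scaled to mitochondrial counts. The median of all features in those scalings was 0.07, 0.14, -0.75 and -0.39. The members' median less that of all features thus ran from -0.36 to -0.33 over these 4 scalings and the TMM scaling. With snoRNA scaling 0 members were called higher and 27 lower at 30 over 0 min, against 0.21% and 18.7% of all features, and 1 higher and 19 lower over control, against 0.808% and 14.4%. With total library size 1 was called higher and 1 lower over 0 min (0.759% and 1.52% of all features), and 4 higher and 2 lower over control (2.65% and 2.41%). RLE factors gave 1 higher and 0 lower over 0 min (0.549% and 1.52%), and 2 and 2 over control (1.52% and 4.09%). Mitochondrial scaling gave 0 calls over 0 min, where 0.937% of all features were called, and 0 higher and 1 lower over control (0.63% and 2.47%).

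Summed over the 39 genes, CPM was 16233 and 12516 before rapamycin, 14492 and 14043 after 15 min, 10586 and 12369 after 30 min, and 14103 and 17777 in the control strain. Both 30 min sums lay below all other libraries, the nearest being 0 min replicate 2. As a share of all counts the members took 1.41% to 1.51% at 0 min, 1.28% to 1.33% at 15 min, 1.32% to 1.34% at 30 min and 1.39% to 1.52% in the control. ILV5, ASN1 and GCN4 together gave 22.8% to 34.4% of the members' counts, so the sums lean on these 3 genes.

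**Figure D2:**
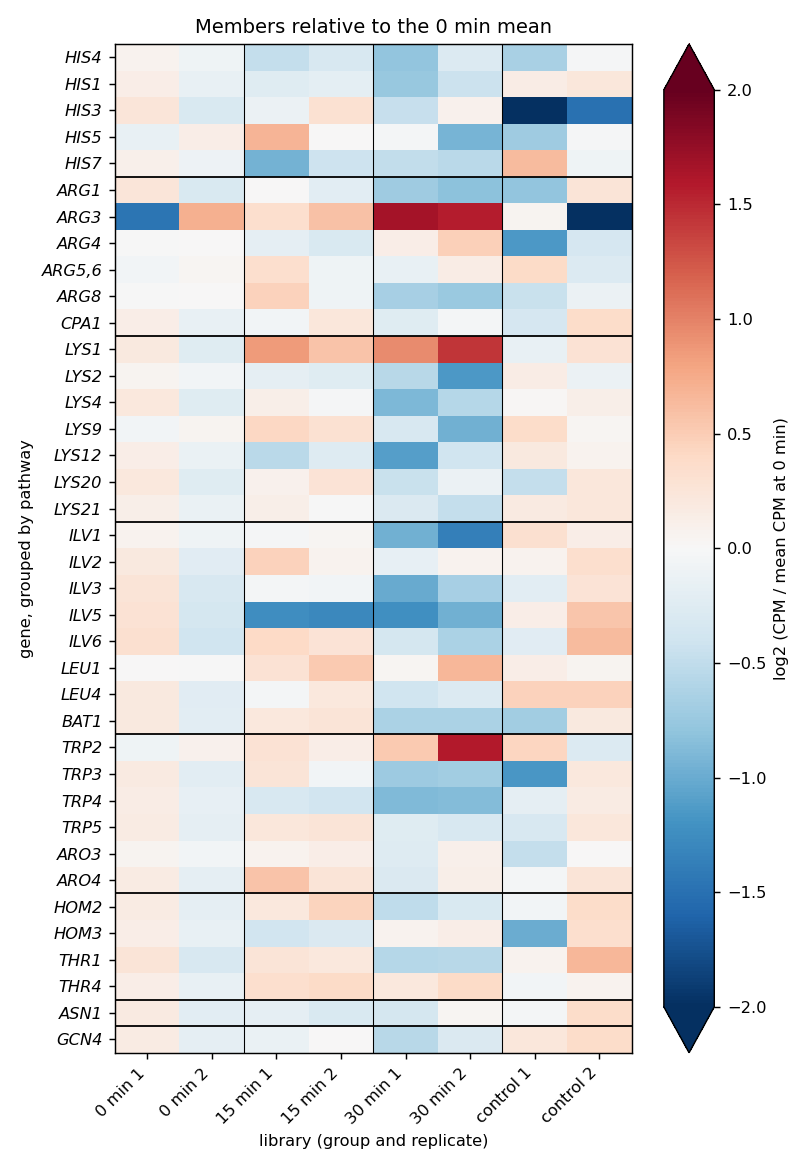
Log2 ratio of CPM in each of the 8 libraries to the gene's mean CPM at 0 min, for 38 of the 39 members grouped by pathway (black lines), with the colour scale ending at -2 and 2. The 30 min columns are mostly blue, LYS1, ARG3 and TRP2 are red there, ILV5 is blue from 15 min on, and HIS3 is dark blue in the control.

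GCN4 itself (YEL009C, chromosome V, 138918-139763) had the highest level of the set per length on average over the 8 libraries, 1323 CPM per kb of coding sequence, a scale on which its long leader is not counted as length. By group mean, ILV5 was close to it at 0 min (1309 against 1340.2) and above it in the control (1677 against 1653). Its CPM was 1272 and 996 before rapamycin, 1037 and 1144 after 15 min, 775 and 932 after 30 min, and 1330.2 and 1467 in the control strain. Both 30 min libraries were below all 6 others, and both control libraries were above all 6 of the tagged strain. The difference was -0.41 ± 0.25 log2 units (± SE) at 30 over 0 min and -0.71 ± 0.25 at 30 min over control, and edgeR called neither (adjusted p = 0.517 and 0.0981). The value against the control was called by DESeq2, at -0.65, by limma-voom, at -0.72, and with snoRNA scaling, at -1.15, which also called the value over 0 min, at -1.09. At 15 min over 0 min GCN4 stood at -0.06 ± 0.25, and at -0.88 with snoRNA scaling. That scaling lowers features in general. Its median over all features was -0.92 at 15 over 0 min, -0.75 at 30 over 0 min and -0.36 at 30 min over control.

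In the branched-chain pathway, ILV5 and ILV1 fell. The pathway makes isoleucine from threonine, and valine and leucine from pyruvate, in mitochondria for the most part. Its 8 members had a median of -0.56 at 30 over 0 min and -0.77 at 30 min over control, and 7 of 8 were below 0 in each.

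ILV5 (YLR355C, chromosome XII, 838066-839253) encodes acetohydroxyacid reductoisomerase, shared by the isoleucine and valine branches, a protein that also binds mitochondrial DNA. Its CPM was 1895 and 1216 before rapamycin, 655 and 636 after 15 min, 662 and 795 after 30 min, and 1703 and 2282 in the control strain. All 4 libraries of the tagged strain after rapamycin lay below all 4 of the others. ILV5 fell by 1.36 ± 0.19 log2 units over those 4 against 4, 2.57-fold (edgeR adjusted p = 0.000531), a call that held in all 18 alternatives that could be fitted. At 30 min it fell by 1.09 ± 0.27 over 0 min (edgeR adjusted p = 0.0382) and by 1.45 ± 0.28 over control (edgeR adjusted p = 0.00432). The call over 0 min was lost on leaving out any 1 of 6 libraries, all but 0 min replicate 2 and control replicate 1, with values from -1.25 to -0.65, and in 12 of all 19 alternatives. The call over control held in each of those fits, and was lost, at -1.80, without the 3 libraries with many features at 0. At 15 min over 0 min its log2 fold change was already -1.27 ± 0.27 (edgeR adjusted p = 0.0742), and 30 over 15 min gave 0.18 ± 0.27.

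ILV1 (YER086W, chromosome V, 328477-330207) encodes threonine deaminase, the entry step to isoleucine. Its CPM was 232 and 209 before rapamycin, 218 and 227 after 15 min, 114 and 85.3 after 30 min, and 274 and 240.5 in the control strain. Both 30 min libraries were at or under 114, where the other 6 lay between 209 and 274. ILV1 fell by 1.15 ± 0.26 log2 units at 30 over 0 min (edgeR adjusted p = 0.0226) and by 1.37 ± 0.26 over control (edgeR adjusted p = 0.00461). At 15 min over 0 min it was 0.01 ± 0.26, and at 30 over 15 min -1.16 ± 0.26, which edgeR did not call (adjusted p = 0.0627). Over the 4 libraries against 4 it fell by 0.68 ± 0.18 (edgeR adjusted p = 0.0326), though those groups overlap since the 15 min libraries were not low. The call over 0 min was lost on leaving out 0 min replicate 1, 30 min replicate 2 or either 15 min library, with values from -1.07 to -0.98. The call over the 4 against 4 was lost without any of those 4 or control replicate 1, from -0.65 to -0.59. The call over control held with any 1 library left out, and was lost without the 3 libraries with many features at 0 (-1.10) and with mitochondrial scaling (-1.65). Over all 19 alternatives the call over 0 min was lost in 10, and the call over the 4 against 4 was lost in 10 of 18. The difference between ILV1 and ILV5 in their time course was not tested.

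The other 6 branched-chain genes were not called in any of the 6 comparisons. ILV3, dihydroxyacid dehydratase, had 1003 and 676 CPM before rapamycin, 814 and 805 after 15 min, 416 and 533 after 30 min, and 723 and 1015 in the control strain, with both 30 min libraries lowest and a log2 fold change of -0.82 over 0 min. The acetolactate synthase genes differed in their values at 30 over 0 min, -0.04 for the catalytic subunit gene ILV2 and -0.48 for the regulatory subunit gene ILV6. BAT1, the mitochondrial branched-chain aminotransferase, stood at -0.63, and LEU4, isopropylmalate synthase, at -0.33. LEU1, isopropylmalate isomerase, was the 1 gene of the 8 above 0, at 0.38. Reads of BAT1 and LEU4 could be shared with their paralogs BAT2 and LEU9 if the counting, whose rule no source used here gives, allowed it.

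**Figure D3:**
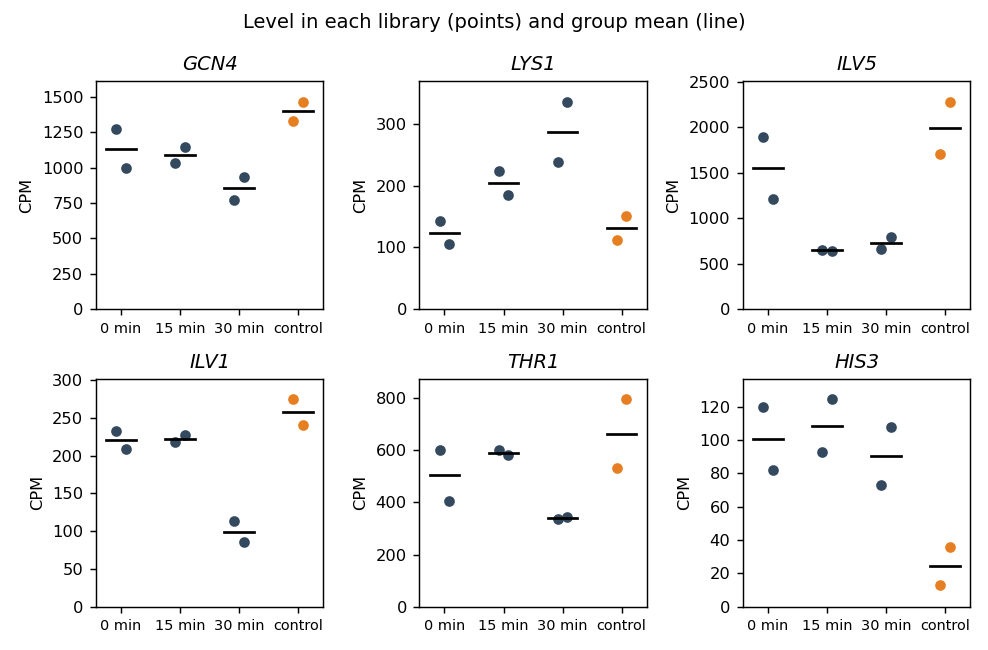
CPM of GCN4 and of the 5 members called in at least 1 comparison, in each library (points, with control libraries in orange) and as the group mean (line). ILV5 is already at 636 to 655 at 15 min, ILV1 and THR1 are low at 30 min, LYS1 is highest at 30 min, and HIS3 is low in the control, at 13.0 and 35.9.

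Among the lysine genes LYS1 rose while the other 6 had values below 0 at 30 over 0 min. The yeast pathway runs from homocitrate through aminoadipate to saccharopine, and LYS1 (YIR034C, chromosome IX, 419615-420736) encodes the saccharopine dehydrogenase of its last step. LYS1 had 142 and 105 CPM before rapamycin, 224 and 185 after 15 min, 238 and 336 after 30 min, and 112 and 151 in the control strain. The 4 libraries of the tagged strain after rapamycin all lay above the other 4, and the 30 min libraries above the 15 min ones. LYS1 rose by 1.21 ± 0.29 log2 units at 30 over 0 min (edgeR adjusted p = 0.0285), by 1.13 ± 0.29 over control (edgeR adjusted p = 0.0256) and by 0.93 ± 0.20 over the 4 against 4 (edgeR adjusted p = 0.0104). At 15 min over 0 min its log2 fold change of 0.72 ± 0.29 was not called (edgeR adjusted p = 0.559), and it stood at -0.08 with snoRNA scaling. Without 30 min replicate 2, one of the libraries with many features at 0, LYS1 was 0.93 over 0 min and 0.84 over control, and neither was called. The first call was also lost without 0 min replicate 2, at 1.00, and the second without control replicate 1, at 0.92. Without all 3 such libraries its values were 0.93, 0.65 and, over the 4 against 4, 0.61, none of them called. All 3 calls were also lost with snoRNA scaling (0.54, 0.70 and 0.31) and mitochondrial scaling (0.88, 0.80 and 0.85), and the call over 0 min in a fit of only those groups (1.29).

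The remaining lysine genes ran from -0.83 to -0.27 at 30 over 0 min, and none was called. LYS12, homoisocitrate dehydrogenase, had the most CPM per kb of the lysine genes on average over the 8 libraries (191.9), while LYS1 was above it at 15 min (182.3 against 168.9) and at 30 min (255.8 against 135.0). LYS12 had 269 and 224 CPM before rapamycin, 170.4 and 206 after 15 min, 114 and 187 after 30 min, and 282 and 260.0 in the control strain. Its 30 min libraries lay below those at 0 min and in the control, at -0.71 ± 0.28 over 0 min (edgeR adjusted p = 0.217). LYS2, aminoadipate reductase, stood at -0.83, LYS4, homoaconitase, at -0.73, and LYS9, the saccharopine dehydrogenase that precedes LYS1, at -0.61. The homocitrate synthase genes LYS20 and LYS21, paralogs whose reads may be shared, stood at -0.27 and -0.39. The lysine median was -0.61 over 0 min and -0.80 over control.

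Among the homoserine and threonine genes, THR1 at 30 min lay below the control. THR1 (YHR025W, chromosome VIII, 159438-160511) encodes homoserine kinase, the first step specific to threonine. Its CPM was 603 and 404 before rapamycin, 601 and 581 after 15 min, 338 and 344 after 30 min, and 531 and 795 in the control strain. Both 30 min libraries were the lowest of the 8. The difference was -0.96 ± 0.27 log2 units over control (edgeR adjusted p = 0.0421) and -0.56 ± 0.27 over 0 min (edgeR adjusted p = 0.344). The first was -0.58 without control replicate 2, and the call was also lost without either 15 min or either 30 min library, from -0.99 to -0.88. It was lost as well without the 3 libraries with many features at 0 (-1.25), with RLE (-0.89), total library size (-0.59) and mitochondrial (-1.29) scaling, with a mean count of at least 50 (-0.87), in a fit of only the groups compared (-0.88) and with a replicate block (-0.96), 12 of 19 alternatives in all. THR4, threonine synthase and the next step, had 460.0 and 379.8 CPM before rapamycin, 532 and 547 after 15 min, 488 and 549 after 30 min, and 404 and 441 in the control strain. All 4 THR4 values of the tagged strain after rapamycin were above the other 4, at 0.33 ± 0.17, which edgeR did not call (adjusted p = 0.279). HOM3, aspartate kinase, stood at 0.11 and HOM2, aspartate semialdehyde dehydrogenase, at -0.40 at 30 over 0 min.

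HIS3 was the histidine gene that differed, and it did so through the control strain. Its product is imidazoleglycerol-phosphate dehydratase. The feature with HIS3 (YOR202W, chromosome XV, 721946-722608) had 119.6 and 82.0 CPM before rapamycin, 92.9 and 124 after 15 min, 73.1 and 108 after 30 min, and 13.0 and 35.9 in the control strain. All 6 libraries of the tagged strain lay above both control libraries, and the 3 tagged groups overlapped each other. HIS3 was 1.88 ± 0.44 log2 units higher at 30 min than in the control (edgeR adjusted p = 0.0155), and the control over 0 min gave -2.04 ± 0.44, which edgeR did not call (adjusted p = 0.202). The first was 1.56 without 30 min replicate 2, 1.32 without control replicate 1, 1.01 without the 3 libraries with many features at 0 and 1.50 with mitochondrial scaling, none of them called. Within the tagged strain HIS3 stood at -0.16 ± 0.42 at 30 over 0 min, and both 0 min libraries, taken before rapamycin, already lay above both control libraries. The tagged strain carries a marker written as HIS at NAB2, and which HIS gene that marker holds is not given in the labels. The marker and any other difference between the strains cannot be told apart.

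The other 4 histidine genes had values below 0 at 30 over 0 min, from -0.59 to -0.41, and none was called. HIS1, ATP phosphoribosyltransferase, the first enzyme of the pathway and the most abundant of its genes per length (274 CPM per kb), had 294 and 241 CPM before rapamycin, 226 and 234 after 15 min, 159 and 198 after 30 min, and 295 and 314 in the control strain. Its 30 min libraries were the lowest of the 8, at -0.59 ± 0.25 over 0 min (edgeR adjusted p = 0.265). HIS4, a protein with several catalytic activities in the pathway, and HIS7, imidazole glycerol phosphate synthase, both stood at -0.51, and HIS5, histidinol-phosphate aminotransferase, at -0.41. The histidine median was -0.51 over 0 min and -0.21 over control.

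The arginine genes showed no shared direction, with a median of 0.01 at 30 over 0 min and 4 of 7 above 0. At 30 min over control the median was -0.08, with 3 above 0 and 4 below. ARG4 stood at 0.99 ± 0.34 over control, which edgeR did not call (adjusted p = 0.0954). ARG3 (YJL088W), ornithine carbamoyltransferase, had the largest value of the set but also the widest spread between replicates. Its CPM was 9.04 and 41.0 before rapamycin, 31.4 and 37.7 after 15 min, 79.3 and 74.1 after 30 min, and 26.1 and 4.93 in the control strain. The 0 min libraries differed 4.53-fold and the control libraries 5.29-fold. Both 30 min libraries were nonetheless above all others, at 1.62 ± 0.74 over 0 min (edgeR adjusted p = 0.327) and 2.31 ± 0.76 over control (edgeR adjusted p = 0.0938). The feature with CPA1, the small subunit of the arginine-specific carbamoyl phosphate synthetase, had 369 and 305 CPM before rapamycin, 325 and 396 after 15 min, 285 and 326 after 30 min, and 268 and 436 in the control strain. Those groups overlapped, at -0.14 ± 0.27 over 0 min. ARG1, argininosuccinate synthetase, stood at -0.76 and ARG4, argininosuccinate lyase, which follows it, at 0.31. ARG8, acetylornithine aminotransferase, was at -0.70, and ARG5,6, which encodes the kinase and reductase before it, at 0.01.

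Of the 6 tryptophan and aromatic genes none was called, and 5 were below 0 at 30 over 0 min, with a median of -0.17. TRP4 (YDR354W), anthranilate phosphoribosyltransferase, had 165 and 133 CPM before rapamycin, 119 and 114 after 15 min, 80.4 and 81.4 after 30 min, and 131 and 166 in the control strain. All 4 libraries of the tagged strain after rapamycin were below the other 4, at -0.62 ± 0.20 (edgeR adjusted p = 0.0769). TRP2, anthranilate synthase, had 81.0 and 91.0 CPM before rapamycin, 105 and 94.6 after 15 min, 124 and 257 after 30 min, and 116 and 71.4 in the control strain. Both 30 min libraries were above the other 6, by far the more in replicate 2, one of the libraries with many features at 0. Its value over 0 min was 1.15 ± 0.35, which edgeR did not call (adjusted p = 0.0983). ARO4, a DAHP synthase at the entry to the aromatic pathway, had 736 and 584 CPM before rapamycin, 981 and 786 after 15 min, 539.8 and 713 after 30 min, and 642 and 790.3 in the control strain. The ARO4 groups at 30 and 0 min overlapped, at -0.07 ± 0.26, the same value as for its paralog ARO3. TRP3 stood at -0.71 and TRP5, tryptophan synthase, at -0.27. TRP1, a further gene of the pathway, is a marker in both strains and is no member.

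ASN1, asparagine synthetase, had 2082 and 1583 CPM before rapamycin, 1616 and 1488 after 15 min, 1438 and 1889 after 30 min, and 1777 and 2365 in the control strain. The groups at 30 and 0 min overlapped, at -0.14 ± 0.26 (edgeR adjusted p = 0.925). Reads may be shared with its paralog ASN2.

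**Figure D4:**
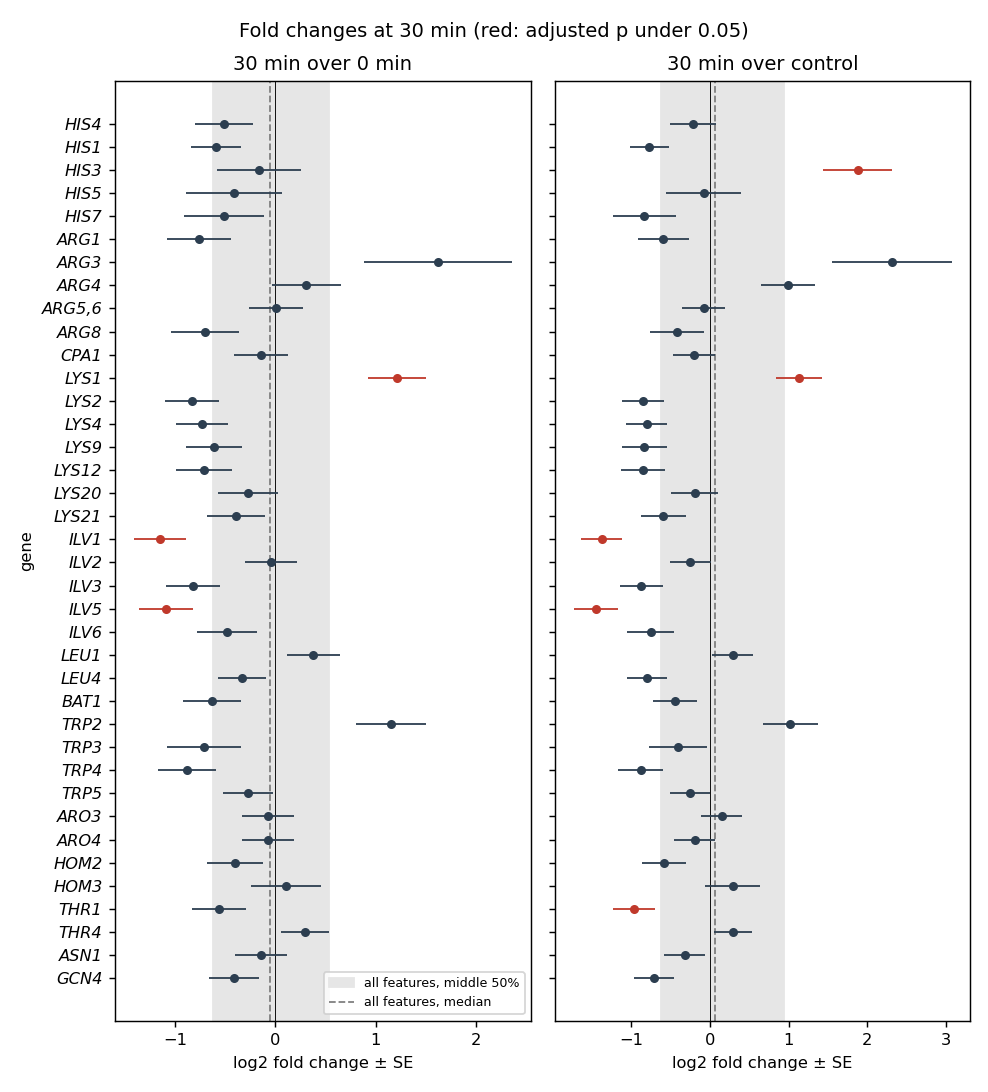
Log2 fold change ± SE of 38 of the 39 members at 30 min over 0 min (left) and over control (right), with called genes in red. The grey band holds the middle 50% of all tested features and the dashed line their median. LYS1 is red above 0 and ILV1 and ILV5 red below 0 on both sides, while HIS3 and THR1 are red against the control only.

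The median changes of members with different numbers of TGACTC matches were as follows. At 30 over 0 min the median log2 fold change was -0.33 for the 8 genes with 0 matches, -0.52 for the 18 with 1 and -0.16 for the 13 with 2 or more. Values ran from -0.73 to -0.04 with 0 matches, from -1.15 to 1.15 with 1 and from -1.09 to 1.62 with 2 or more, and the classes were not tested against each other. HIS7 and ARO4 lie next to each other on chromosome II, 416 bases apart and on the same strand, and stood at -0.51 and -0.07 at 30 over 0 min.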

How the data were processed

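Per the labels, rRNA-depleted RNA was sequenced in strand-specific libraries. The deposited values are raw whole-number counts of reads for each annotated feature. Build R64 and the tools GSNAP, bedtools 2.17.0 and HTSeq 0.5.3 are named in the submitters' processing notes, and how reads were assigned is not given in the sources used here. Spike-in RNA of fission yeast is described in the labels' protocols, and since 0 features of it were analysed here, libraries were scaled with TMM.

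Of 7711 table rows, 29 exact repeats and 24 entries shadowing a gene were removed, leaving 7658, and edgeR's filterByExpr kept 6191. A single model of group means was fitted over all 8 libraries in R 4.3.3 with edgeR 4.0.16. The quasi-likelihood test was robust and 2-sided, with 4 residual degrees of freedom and a common dispersion of 0.373. The code was checked on simulated data with a smaller dispersion than this. That check cannot show how the model performs at the spread seen here. The SE given is the absolute log2 fold change over the square root of the test's F statistic. It was worked back from the test and is no separate estimate. Alternatives used DESeq2 1.42.0 and limma 3.58.1. The members, the gene lists and the tests were chosen with earlier results of these data known. The comparisons share libraries: 0 min or control values enter several of them.

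Per-library values are given for GCN4, for each called member, and, in each pathway, for the member with the smallest p over the libraries after rapamycin against the rest and the member with the most counts per kb. ILV3 and TRP2 fall outside this rule and were chosen after their values were seen. A rule for unannotated transcripts near members was not applied, since no positions of theirs were used here. The 30 min library numbered 3 in its title is replicate 2 in its description, which was followed. Replicate numbers were not used to pair the libraries in the main fit. Of the 39 members, 1 enters the counts and medians and is not reported by itself here.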

Additional observations from a re-analysis of the deposited data

How the results depend on the processing

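Members called are given in this order of comparisons: 15 over 0 min, 30 over 0 min, 30 min over control, 30 over 15 min, control over 0 min, and 15 and 30 min over 0 min and control. The values reported were 0, 3, 5, 0, 0 and 3, with 0.162%, 2.76%, 6.07%, 0.452%, 0.0808% and 6.95% of all features called in the same comparisons. DESeq2 called 1, 4, 10, 2, 1 and 5 members (1.69%, 6.85%, 11.6%, 8.56%, 0.226% and 11.3% of all features). limma-voom called 1, 6, 12, 1, 1 and 6 (0.985%, 5.6%, 8.5%, 1.23%, 0.113% and 12.1%), and no filter on counts 1, 5, 9, 1, 1 and 7 (1.05%, 4.43%, 8.96%, 1.85%, 0.557% and 9.46%). A mean count of at least 50 gave 0, 1, 4, 0, 0 and 2 (0.161%, 2.15%, 5.93%, 0.0201%, 0.0804% and 6.63%). RLE scaling gave 0, 1, 4, 0, 0 and 3 (0.162%, 2.07%, 5.6%, 0.129%, 0.0808% and 6.15%), and total library size 1, 2, 6, 0, 1 and 3 (0.468%, 2.28%, 5.06%, 0.0808%, 0.0969% and 6.12%). Mitochondrial scaling gave 0, 0, 1, 0, 0 and 1 (0.0969%, 0.937%, 3.1%, 0.145%, 0.226% and 3.3%), and snoRNA scaling 15, 27, 20, 0, 1 and 29 (17.2%, 18.9%, 15.2%, 0.42%, 0.0969% and 29.6%). Only the groups compared gave 0, 0, 5, 0 and 0 in the first 5 comparisons (0.151%, 0%, 5.58%, 0.453% and 0.174%), and the last could not be refitted that way. With the replicate number as a block the counts were 0, 2, 4, 0, 1 and 4 (0.275%, 2.89%, 6.4%, 0.598%, 0.113% and 6.95%). Leaving out 1 library at a time gave 0 to 1, 0 to 4, 3 to 8, 0 to 3, 0 to 1 and 2 to 6, and leaving out the 3 libraries with many features at 0 gave 0, 0, 0, 0, 0 and 1 (0.0777%, 4.13%, 4.62%, 0%, 0.14% and 8.25%). With 1 library left out, the shares of all features ran from 0% to 0.804%, 0.617% to 6.99%, 3.76% to 9.54%, 0% to 4.46%, 0.0773% to 0.463% and 2.94% to 10.3%. The fit without the 3 libraries with many features at 0 keeps 1 library in some groups. A change in the number of calls there need not mean a change in size. The cause was not tested.

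The members' median log2 fold change turned sign in 3 comparisons. At 15 over 0 min it was -0.04 with total library size, -0.71 with snoRNA scaling and -0.04 to 0.24 with 1 library left out. For control over 0 min it was -0.07, -0.16 and -0.05 to 0.19. Over the 4 libraries against 4 it was -0.29 to 0.02 with 1 library left out. The medians at 30 over 0 min, 30 min over control and 30 over 15 min stayed below 0 in all 19 alternatives. No called member changed sign in the comparison that called it.

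Each group has 2 libraries, and same-numbered libraries did not deviate together (correlations from -0.263 to 0.11). With 2 libraries a group, these correlations cannot show whether libraries were prepared in pairs. The shallowest library is 30 min replicate 2, and several calls of LYS1, ILV1, ILV5, HIS3 and THR1 were lost without it. Each of those calls was also lost on leaving out some other library, so they did not rest on the shallowest one alone.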

Other observations

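Genes around the same control system were taken from lists that were chosen with earlier results known. Of 38 other amino acid synthesis genes, 0 were called at 30 over 0 min with edgeR, against 2.76% of all features. At an unadjusted p under 0.05, 1 was higher and 2 lower there, against 4.05% and 10.7% of all features. At 30 min 2 of the 38 were lower than in the control, against 4.76%. HIS2, histidinol-phosphatase, had 125 and 92.5 CPM before rapamycin, 47.1 and 77.6 after 15 min, 38.8 and 55.5 after 30 min, and 125 and 118 in the control strain. All 4 HIS2 values after rapamycin in the tagged strain were below the other 4, at -1.09 ± 0.25 log2 units (edgeR adjusted p = 0.0141). The feature with GLY1, threonine aldolase, had 1072 and 776 CPM before rapamycin, 522 and 414 after 15 min, 477 and 523 after 30 min, and 774 and 1208 in the control strain, a difference of -0.98 ± 0.19 over the same groups (edgeR adjusted p = 0.00492). It is counted together with a second name, so its counts cannot be assigned to 1 gene.

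Among 11 genes that control GCN4 translation, SUI3 (eIF2 beta) and GCD1 (eIF2B gamma) were lower after rapamycin in the tagged strain than in the other 4 libraries, at -0.80 ± 0.21 and -0.87 ± 0.24 (edgeR adjusted p = 0.0248 and 0.0373). SUI3 had 589 and 638 CPM before rapamycin, 430.4 and 471 after 15 min, 194 and 399 after 30 min, and 696 and 626 in the control strain, so the groups did not overlap. Among 12 partner and turnover genes, PHO85, the kinase that marks Gcn4 for degradation, was lower at -1.24 ± 0.32 (edgeR adjusted p = 0.0246). Of 12 amino acid permease genes, AGP1 and DIP5 rose at 30 over 0 min, by 1.16 ± 0.29 and 1.41 ± 0.32 (edgeR adjusted p = 0.0397 and 0.0236). At 30 min over control 0 of the 12 were called higher, against 1.31% of all features, and 1 lower, against 4.76%. AGP1 had 156.3 and 138.5 CPM before rapamycin, 166.2 and 227.8 after 15 min, 347.4 and 311.4 after 30 min, and 126.6 and 216.6 in the control strain. DIP5 had 60.9 and 61.6, 140.5 and 146.1, 189.9 and 134.4, and 111.0 and 65.8 CPM in the same groups. LYP1, the lysine permease, was lower after rapamycin in the tagged strain, with 205 and 178 CPM before rapamycin, 68.7 and 102 after 15 min, 112 and 115 after 30 min, and 223 and 226 in the control strain (-1.08 ± 0.20, edgeR adjusted p = 0.00300). Of all features, 0.501% were called higher at 30 over 0 min, and 1.89% were higher and 5.06% lower over the 4 libraries against 4.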
